A study of Mus musculus with 15 samples.

Results

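Thoracic perivascular fat (tPVAT) from mice that lack Prdm16 in adipocytes was set against abdominal perivascular fat (aPVAT) from control mice, over all genes. Perivascular fat is the adipose tissue around the aorta. The 8 libraries were taken by their labels, 4 of tPVAT cKO and 4 of aPVAT control, out of 15 in the series. The tPVAT cKO mice were Prdm16flox, AdipoQCre+, and the aPVAT control mice were Prdm16flox without a Cre, so both groups carry the flox allele. The AdipoQ regulatory sequence drives Cre in adipocytes, and other cells of the tissue keep the gene. All mice were 11 weeks old, and the labels give neither their sex nor the deleted exon. The 4 tPVAT control libraries (Prdm16flox) served as the third point. The 3 aPVAT cKO libraries (Prdm16flox, AdipoQCre+) entered no comparison. They took part in the low-count filter, the scaling, the shared estimate of the spread and the principal components. The comparison asks which thoracic features still part the knockout fat from abdominal fat and which have come to the abdominal level. Depot and genotype differ together in it and cannot be told apart without the tPVAT controls. Whether each sample is a mouse of its own is not stated in the labels. The p-values therefore weigh differences against the spread among these samples alone, which may be technical.

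Brown adipocytes burn fuel for heat: uncoupling protein Ucp1 lets protons re-enter mitochondria without making ATP, and the cells are dense with mitochondria. White adipocytes store lipid and secrete leptin, resistin and angiotensinogen. Thoracic perivascular fat of mice resembles brown fat and abdominal perivascular fat is closer to white. PRDM16 is a zinc finger co-regulator that, with PPARγ, C/EBPβ and EBF2, holds the brown and beige adipocyte programme and represses white-selective genes.

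The targeted gene itself stood at the abdominal level. Prdm16 (chromosome 4, 154316125 to 154636873, minus strand, mm10) measured 22.4, 21.2, 22.2 and 23.8 CPM in the tPVAT cKO libraries. It measured 26.8, 21.4, 23.3 and 23.4 CPM in the aPVAT controls and 46.4, 41.1, 46.3 and 55.6 CPM in the tPVAT controls. CPM is a gene's count scaled to a common library total, here also by TMM, a normalization that balances composition between libraries. The tPVAT cKO and aPVAT control libraries overlapped and the tPVAT controls stood above both. The difference between tPVAT cKO and aPVAT control was -0.08 on the log2 scale (SE 0.0962, 95% interval -0.29 to 0.12, adjusted p = 0.471 by edgeR), while against tPVAT control Prdm16 fell by 1.08 (adjusted p = 2.22e-06). Counts are over the whole gene, so exons outside the deleted part add to them, and the source of the remaining counts in the knockout fat was not tested. In bulk tissue, fewer cells of a type and less RNA per cell cannot be told apart. Prdm16 also overlaps annotated genes on the opposite strand, and the strand setting of the counting is not given in the sources used here. Of the genes named below, Acaa1b, Acsl5, Cebpb, Ckmt2, Cox6a2, Ebf2, Ednra, Esrrg, Il18bp, Me1, Nnat, Osbp2, Ppargc1b, Psat1, Qsox1, S100b, Slc25a10, Slc2a12, Slc7a10 and Tgm3 likewise overlap genes on the opposite strand, and Atp5g2, Esrrg, Hsd11b1, Kng2, Me1, Myh6, Prlr and Ptges overlap genes on the same strand, so their counts may hold reads of a neighbour.

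Library totals ran from 37761133 to 68735385 counts over the series and from 50572494 upward in the 8 libraries compared. On the first principal component of log2 CPM, which held 59.1% of the variance, the tPVAT cKO libraries lay at 35.7 to 54.0, the tPVAT controls at 54.3 to 61.7 and the aPVAT controls at -62.8 to -53.6. On the second component, which held 9.39%, the tPVAT cKO libraries lay at 21 to 29.6, above both control groups. The tPVAT controls lay at -29.3 to -20.1 there and the aPVAT controls at -36.9 to -1.57. The library tPVAT cKO 2 stood apart from the other knockout libraries, with the lowest value on the first component, and counts are given without it below. Transcripts of the mitochondrial genome took 30.1%, 26.5%, 31.6% and 31.4% of all counts in tPVAT cKO against 13.0%, 16.0%, 14.4% and 14.0% in aPVAT control. The means, 29.9% ± 2.38 and 14.4% ± 1.23 (SD, n = 4 each), differed by 15.5 points (exact permutation test, two-sided p = 0.0286, the smallest that 4 against 4 allows), and the tPVAT controls averaged 34.6% ± 1.28. The adipocyte markers expressed in fat of any colour were present in both groups, with a summed level of 44748 to 48654 CPM in tPVAT cKO and 39891 to 44787 in aPVAT control.

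Most of the depot difference was still there without Prdm16. Of 19645 genes tested, 11546 (58.8%) differed between tPVAT cKO and aPVAT control at an adjusted p under 0.05, with 5608 (28.5%) higher in the knockout thoracic fat and 5938 (30.2%) lower, and 1613 and 1580 of these by at least 2-fold. The 4 and 4 libraries did not overlap for 10135 genes (51.6%). The shares of 28.5% higher and 30.2% lower are the background for every list count below. Between the control depots 11122 genes (56.6%) differed, and between tPVAT cKO and tPVAT control 2367 (12%), with 1069 (5.44%) higher and 1298 (6.61%) lower. These comparisons share libraries, so the classes that follow are descriptions. Of the control depot differences, 9179 (82.5% of them, 46.7% of all genes tested) remained, that is, were called with the same sign between tPVAT cKO and aPVAT control. In 7996 of these the knockout and control thoracic fat did not part at the threshold, in 813 the gene moved toward the abdominal level without getting there, and in 370 it moved further away. Without tPVAT cKO 2 the counts were 5647 higher, 5649 lower and 9058 remaining.

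A gene was said to reach the abdominal level when the control depots differed, the knockout moved it the opposite way, tPVAT cKO and aPVAT control did not differ at the threshold, and the 95% interval of their difference lay within 1.5-fold either way. This held for 394 genes (2.01%), of which 238 came down from a higher thoracic level and 156 came up from a lower one. Another 96 genes (0.489%) crossed, ending on the other side of the abdominal level, 69 of them above it and 27 below. A further 485 genes (2.47%) parted tPVAT cKO from both control groups in the same direction while the controls did not differ at the threshold, 286 higher and 199 lower. Without tPVAT cKO 2 these 3 counts were 333, 90 and 411, and without aPVAT control 1, which stood apart on the second principal component, the last was 739. Of all 1416 genes that moved toward the abdominal level, the median had 59.4% of its log2 gap closed (quartiles 35.6% and 94.4%). Genes that reached it had a median control depot difference of 0.44 on the log2 scale in size, against 1.28 for those that moved toward it and still differed. The margin is 0.58 on that scale. Most genes that reached the abdominal level thus already lay within 1.5-fold of it in tPVAT control. The rule for reaching therefore bears on the contrast between 0.44 and 1.28. In 113 more genes that moved toward it, the difference no longer passed the threshold but its interval was not inside the margin. Their median control depot difference was 1.53 and their median remaining difference 0.32. All of these counts rest on TMM scaling. With library totals alone the median of all genes moves from -0.04 to -0.71 on the log2 scale, the calls split into 1457 higher and 13649 lower, and the 353 genes that then reach the abdominal level share 0 with the 394. The share of higher calls is then 9.65%, against 48.6% with TMM, and every gene named here as having reached the abdominal level is then lower than in aPVAT control.

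**Figure D1:**
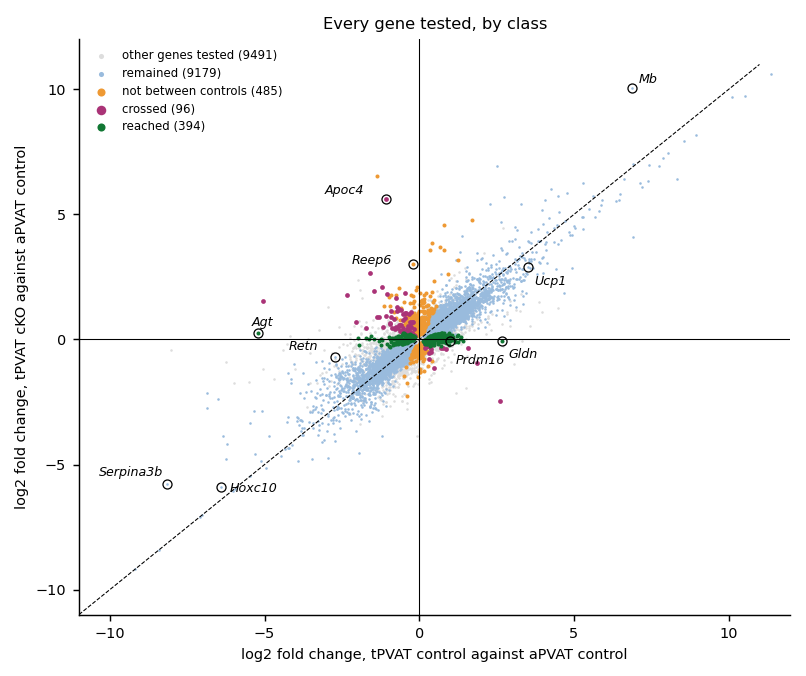
Each point is a gene; the horizontal axis is the log2 fold change of tPVAT control against aPVAT control and the vertical axis that of tPVAT cKO against aPVAT control, with equality dashed and both using the same aPVAT libraries. The 9179 remaining genes lie along the dashed line, the 394 that reached the abdominal level lie on the horizontal zero line, and Agt, Gldn and Prdm16 are among the latter under TMM scaling.

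Thermogenic genes of brown fat stayed above abdominal fat, many of them at a lower level than in control thoracic fat. Of 34 genes of that list tested, 33 were higher in tPVAT cKO than in aPVAT control, with a median difference of 1.98 on the log2 scale (all genes tested, -0.04), beside 2.45 between the control depots. Of these 33, 17 had moved part of the way down, 2 had moved further up, and 14 did not part from the tPVAT controls at the threshold. Ucp1, the uncoupling protein, measured 3995, 3497, 4325 and 4420 CPM in tPVAT cKO, 724, 363, 731 and 365 in aPVAT control, and 6358, 5935, 6581 and 6154 in tPVAT control. Every knockout library lay above every abdominal library and below every control thoracic library. The difference from aPVAT control was 2.89 (SE 0.581, adjusted p = 0.000505), a 7.44-fold higher level, while the difference from tPVAT control, -0.62, did not pass the test (adjusted p = 0.508). The test takes a single spread for the gene from all 15 libraries, including the aPVAT cKO libraries, whose Ucp1 values are not given here. The aPVAT controls ranged from 363 to 731 CPM. Which libraries set the spread was not tested. The adjusted p of 0.508 therefore does not show an unchanged level of Ucp1.

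Cidea, a lipid droplet protein abundant in brown fat, measured 1391, 1274, 1285 and 1366 CPM in tPVAT cKO against 252, 175, 228 and 182 in aPVAT control, a 6.35-fold difference (log2 2.67, SE 0.127, adjusted p = 4.03e-10). Elovl3, a fatty acid elongase of brown fat, measured 217, 161, 205 and 192 CPM against 13.4, 6.84, 7.79 and 7.12 (log2 4.46, SE 0.26, adjusted p = 1.91e-09), and the tPVAT controls averaged 180 ± 14. The knockout libraries of Elovl3 overlapped the control thoracic libraries and stood far above the abdominal ones. Dio2, which activates thyroid hormone, was higher by 2.72 (134 ± 33.7 against 20.4 ± 7.36 CPM) and Ppargc1a, a coactivator of mitochondrial biogenesis, by 2.47 (51.4 ± 10 against 9.32 ± 3.47). Neither parted from tPVAT control at the threshold (adjusted p = 0.607 and 0.587). Cidea, Elovl3 and Dio2 overlap annotated genes on the opposite strand.

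Cox8b, a cytochrome c oxidase subunit used in brown fat and muscle, was among the genes that moved part of the way. It measured 308, 254, 354 and 328 CPM in tPVAT cKO, 112, 82.7, 120 and 90.7 in aPVAT control and 535 ± 18.3 in tPVAT control. The 3 groups did not overlap: the knockout libraries lay between the others, with 32.6% of the log2 gap closed. The remaining difference was 1.62 (SE 0.115, adjusted p = 1.39e-08). Cpn2, a carboxypeptidase N subunit, moved further, to 16.2 ± 2.88 CPM from 58.8 ± 6.23, with 6.65 ± 2.45 in aPVAT control (remaining difference 1.28, SE 0.198, adjusted p = 4.62e-05). Ebf2, the transcription factor that opens brown fat genes with PRDM16, kept a small difference of 0.43 (53.3 ± 5.28 against 39.5 ± 3.9 CPM, SE 0.0853, adjusted p = 0.000441); that difference turns to -0.24 with library totals in place of TMM. The single thermogenic gene that reached the abdominal level was Adrb3, the adipocyte adrenergic receptor, which had been lower in the control thoracic fat (115 ± 8.67 CPM) and measured 133, 228, 182 and 134 CPM against 133, 162, 142 and 169.

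Bmp8b and Lhx8 went the other way. Bmp8b, a secreted factor of activated brown fat, measured 4.47, 2.35, 5.35 and 2.82 CPM in tPVAT cKO, 0.0123, 0.0457, 0.0232 and 0.0368 in aPVAT control and 0.198, 0.169, 0.0919 and 0.229 in tPVAT control. It was thus near 0 in abdominal fat, low in control thoracic fat and raised 21.5-fold over the latter in the knockout (log2 4.42, adjusted p = 4.81e-07). The abdominal level rests on 9 raw counts over 4 libraries, so its ratio to the knockout is loosely held. Bmp8b overlaps Oxct2b on the same strand and Ppie on the opposite one, and the counting of shared reads is not given. Lhx8, a homeobox factor, averaged 2.19 ± 0.175, 0.945 ± 0.198 and 1.53 ± 0.212 CPM in the same order (log2 1.21, SE 0.162, adjusted p = 1.15e-05 against aPVAT control).

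**Figure D2:**
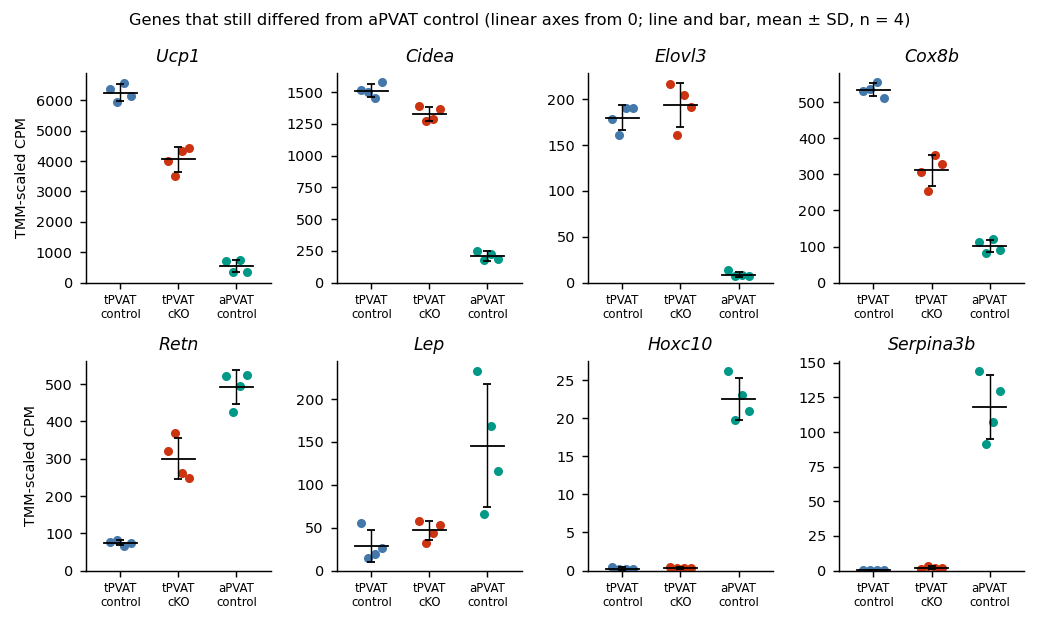
TMM-scaled CPM of 8 genes in each library of tPVAT control, tPVAT cKO and aPVAT control, on linear axes from 0, with the mean and SD (n = 4). Ucp1, Cidea, Elovl3 and Cox8b stay above abdominal control fat in every knockout library, while Retn, Lep, Hoxc10 and Serpina3b stay below it.

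Respiratory chain genes were lower than in control thoracic fat but far above abdominal fat. Of 79 nuclear-encoded subunits tested, 75 were higher in tPVAT cKO than in aPVAT control and 1 lower, with a median of 1.08 (1.47 between the control depots), and 65 had moved part of the way toward the abdominal level. Cycs, cytochrome c, averaged 307 against 87.5 CPM (log2 1.81, SE 0.0863, adjusted p = 4.03e-10), and Cox7b, an oxidase subunit, 428 against 167 (log2 1.35, SE 0.0746, adjusted p = 1.22e-09). The 3 that reached the abdominal level were Cox7a2l, Atp5g2 and Atp5g3, with differences of 0.13, 0.14 and 0.07. Cox7a2l and Atp5g2 came down to it. Atp5g3 came up, averaging 199 CPM in tPVAT cKO, 190 in aPVAT control and 154 in tPVAT control. The Cox7a2l difference passes the test without tPVAT cKO 2 (0.17, adjusted p = 0.034) and without aPVAT control 1 (0.17, adjusted p = 0.027). The 1 lower gene was Atp5g1, a subunit of the ATP synthase ring (-0.42, adjusted p = 0.00158). All 13 protein genes of the mitochondrial genome were higher, with a median of 1.86 (2.16 between the controls), 4 of them below tPVAT control at the threshold.

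Of 28 fatty acid oxidation genes, 27 were higher than in aPVAT control and 1 lower, with a median of 1.08 (1.38 between the controls). Against tPVAT control 15 had fallen and 1, Acaa1b, had risen. Acsl5, which activates long-chain fatty acids, averaged 636 ± 29.2 against 86.6 ± 11.8 CPM (log2 2.88, SE 0.0921, adjusted p = 1.97e-11), with 669 ± 53.7 in tPVAT control. Acaa1b, a peroxisomal thiolase, moved further from the abdominal level: it measured 212, 172, 168 and 235 CPM in tPVAT cKO, 22.1, 21.4, 24.2 and 20.4 in aPVAT control and 50.5 ± 6.3 in tPVAT control. The 1 lower gene was Cpt1a, the carnitine palmitoyltransferase of liver type (47.8 against 67.5 CPM, log2 -0.50, adjusted p = 0.000225).

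In the lipogenesis list the median difference from abdominal fat was 1.24 in the knockout and 0.83 in the control thoracic fat. Of 25 genes, 24 were higher than in aPVAT control, and 12 had risen over tPVAT control. Scd1, the stearoyl-CoA desaturase, measured 65738, 60808, 60673 and 60383 CPM in tPVAT cKO, 14319, 17235, 20827 and 15277 in aPVAT control and 29214, 29290, 33949 and 27927 in tPVAT control. The 3 groups did not overlap and the knockout was highest (log2 1.87, SE 0.129, adjusted p = 9.94e-09 against aPVAT control). Me1, malic enzyme, which supplies NADPH, did not part the control depots (adjusted p = 0.935) and averaged 2013 ± 190 CPM in tPVAT cKO, 928 ± 184 in aPVAT control and 918 ± 55.9 in tPVAT control. The citrate carrier Slc25a1 and the triglyceride-forming enzyme Dgat2 had the same pattern with smaller differences (0.61 and 0.45), which are -0.06 and -0.22 with library totals. Elovl6, a fatty acid elongase picked after its value was seen because it had the widest gap of the list, averaged 1726 ± 169 against 194 ± 81.5 CPM (log2 3.15, SE 0.339, adjusted p = 1.18e-06). The 1 gene of the list that did not pass the test was Srebf1, a regulator of lipogenic genes (323 against 320 CPM, adjusted p = 0.886).

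White-selective genes were mostly still below abdominal fat, and some of them had risen. Of 20 tested, 15 were lower in tPVAT cKO than in aPVAT control and 2 higher, with a median of -0.71 against -1.59 between the control depots, and 8 had risen over tPVAT control, of which 5 still differed from aPVAT control in the direction of the control depots. The other 12, Lep, Nnat and Hoxc10 among them, did not part from tPVAT control at the threshold. Of the 8 that had risen, Agt reached the abdominal level, Hoxc8 crossed it and Wfdc21 did not differ from aPVAT control at the threshold. Hoxc8, Hoxc9 and Hoxc10 are also counted among the posterior Hox genes below. Retn, resistin, measured 320, 369, 263 and 248 CPM in tPVAT cKO, 522, 426, 496 and 525 in aPVAT control and 76.6, 81.6, 66.9 and 74.7 in tPVAT control. The knockout libraries lay between the other groups with 73.7% of the log2 gap closed (remaining difference -0.71, SE 0.114, adjusted p = 6.41e-05). Psat1, an enzyme of serine synthesis, averaged 37.4 ± 3.01 CPM against 72.2 ± 7.18 in aPVAT control and 9.62 ± 1.09 in tPVAT control, 67.4% of the gap (remaining difference -0.95). Slc7a10, a neutral amino acid transporter of white adipocytes, closed 70.5% (remaining difference -0.71, SE 0.176, adjusted p = 0.00265), and its knockout libraries overlapped the abdominal ones. Lep, leptin, measured 58, 32.6, 44.1 and 53 CPM in tPVAT cKO against 233, 65.6, 168 and 116 in aPVAT control (log2 -1.63, SE 0.399, adjusted p = 0.00236). Its abdominal libraries were widely spread, and it did not part from tPVAT control at the threshold (adjusted p = 0.278).

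Adipoq and Cfd, which encode proteins secreted by adipocytes, lay between the control depots. Adipoq, adiponectin, measured 1066, 1228, 1046 and 1120 CPM in tPVAT cKO, 1727, 1382, 1531 and 1648 in aPVAT control and 836 ± 32.8 in tPVAT control, with 45.6% of the gap closed (remaining difference -0.50, SE 0.0945, adjusted p = 0.000329). Cfd, adipsin, averaged 4587 ± 449, 7239 ± 432 and 1925 ± 268 CPM in the same order, 65.6% of the gap (remaining difference -0.66, adjusted p = 4.84e-05). Over 20 genes that adipocytes of any kind express, 10 were higher in tPVAT cKO than in aPVAT control and 6 lower. Among all genes 28.5% were higher and 30.2% lower, so the lower count is near the general share. The median of the list was 0.29 and turns to -0.38 with library totals. Fabp4, the fatty acid binding protein of adipocytes, was higher in the knockout than in both control groups (9016 ± 386, 6231 ± 382 and 6980 ± 326 CPM); its difference from aPVAT control, 0.53, is -0.14 with library totals.

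**Figure D3:**
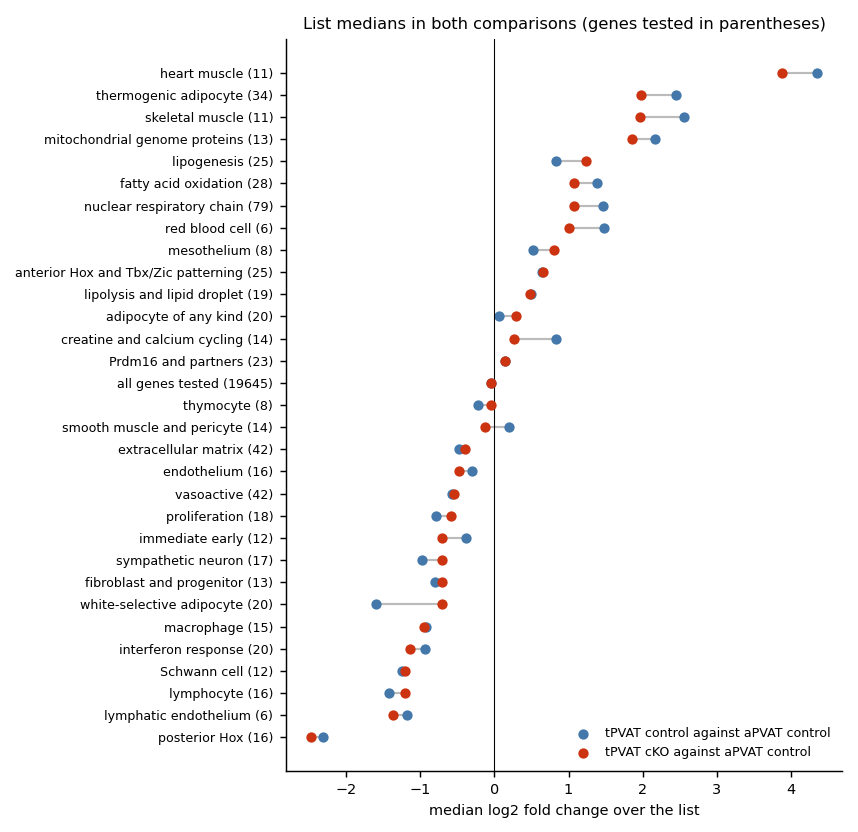
Median log2 fold change of each gene list with at least 6 genes tested, for tPVAT control (blue) and tPVAT cKO (red) against the same aPVAT control libraries. The 2 medians are farthest apart for the white-selective list, at -1.59 and -0.71, and the posterior Hox list stays lowest in tPVAT cKO, at -2.47.

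Most posterior Hox genes stayed far below abdominal fat in the knockout. Hox genes are laid out along the chromosome in the order of the body axis, and the posterior ones mark tissue of the lower trunk. Of 16 genes tested of the list called posterior Hox here, 11 were lower in tPVAT cKO than in aPVAT control and 3 higher. The median was -2.47, beside -2.31 between the control depots. That list also holds genes from the middle of the clusters, such as Hoxc6, Hoxb8 and Hoxc8. Hoxc10 measured 0.518, 0.384, 0.298 and 0.288 CPM in tPVAT cKO against 26.2, 19.8, 23.1 and 21 in aPVAT control (log2 -5.90, SE 0.215, adjusted p = 5.70e-11), and 0.257 ± 0.159 in tPVAT control. Hoxa10 averaged 0.513 ± 0.0922 against 14.8 ± 2.18 CPM (log2 -4.84) and Hoxd9 0.857 ± 0.147 against 6.96 ± 0.897 (log2 -3.02). Both stood near their level in tPVAT control (0.417 ± 0.186 and 1.14 ± 0.172 CPM) and did not part from it at the threshold.

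At the far posterior end, Hoxa11, its antisense RNA Hoxa11os and Hoxc11, named here because their values were seen, had 0 counts in every thoracic library of either genotype. Against a floor of 3 counts over the 4 knockout libraries (0.0137 CPM), Hoxa11 was at least 84.2-fold lower than in aPVAT control (1.16 CPM), Hoxa11os at least 49.5-fold (0.681 CPM) and Hoxc11 at least 19.5-fold (0.268 CPM). Those bounds cover counting error only. Hoxa11 and Hoxa11os lie on opposite strands of one locus, so their reads may be shared.

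Of the 16 genes of the posterior Hox list, 4 (Hoxc8, Hoxb8, Hoxc9 and Hoxc6) had risen over tPVAT control, where 5.44% of all genes had. Hoxc8, Hoxb8 and Hoxc6 belong to the middle of the clusters, and Hoxc10, Hoxa10 and Hoxd9 had not risen at the threshold. Hoxc8 crossed: it measured 61.9, 57.3, 54.5 and 59.5 CPM in tPVAT cKO, 28.3, 45.6, 42.1 and 41.1 in aPVAT control and 24.7, 22.7, 28.1 and 26.9 in tPVAT control. Every knockout library lay above every library of either control group (log2 0.57, SE 0.114, adjusted p = 0.000489 against aPVAT control; -0.10 and 0.431 with library totals). Hoxb8 moved further above the abdominal level (9.87, 4.44 and 6 CPM in tPVAT cKO, aPVAT control and tPVAT control), Hoxc9 rose but stayed far below it (1.88, 12.8 and 1.24), and Hoxc6 reached it (23.6 ± 1.57, 24.9 ± 1.48 and 18.9 ± 1.87). Hoxc6, Hoxc8, Hoxc9 and Hoxc10 share annotated bases with Hoxc5 on the same strand, so reads may be split between them. Of 25 anterior Hox, Tbx and Zic patterning genes, 16 were higher than in aPVAT control (28.5% of all genes were) and 6 lower (30.2%). Their median of 0.65 falls to -0.01 with library totals. Tbx5, a T-box factor of the heart and forelimb region, averaged 3.95 against 0.821 CPM (log2 2.26, adjusted p = 7.55e-08) and 4.71 in tPVAT control.

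The named genes farthest below abdominal fat, besides the Hox genes, had varied roles. C6, a complement component of the membrane attack complex, measured 0.59, 0.718, 0.279 and 0.249 CPM in tPVAT cKO against 37.3, 22.5, 28 and 35.6 in aPVAT control (log2 -6.04, SE 0.289, adjusted p = 4.08e-10), and 0.466 ± 0.242 in tPVAT control. Serpina3b, a serine protease inhibitor of a cluster of near-identical genes between which reads may be split, measured 1.38, 3.34, 2.01 and 1.92 CPM against 144, 91.5, 107 and 130. It had risen over tPVAT control (0.417 ± 0.185 CPM, adjusted p = 0.000261) and was still far lower than in aPVAT control (log2 -5.76, SE 0.264, adjusted p = 3.32e-10). Nnat, an imprinted proteolipid with a widely spread abdominal level of 259, 48.8, 173 and 160 CPM, averaged 8.04 ± 1.44 in tPVAT cKO (log2 -4.32). Sult1e1, an oestrogen sulfotransferase, averaged 1.02 ± 0.19 against 14.4 ± 2.43 CPM (log2 -3.83). Of these, C6, Nnat and Sult1e1 did not part from tPVAT control at the threshold.

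Genes that act on vessel tone were mostly lower than in abdominal fat, as between the control depots. Of 42 tested, 25 were lower (30.2% of all genes were) and 6 higher (28.5% of all genes), with a median of -0.54 (-0.57 between the controls). Ednra, an endothelin receptor, averaged 10.1 ± 1.08 against 22.7 ± 1 CPM (log2 -1.16, adjusted p = 1.17e-07), and Hpgd, which inactivates prostaglandins, 10.4 ± 0.818 against 26.9 ± 0.504 (log2 -1.37, adjusted p = 3.09e-09). Kng2, a kininogen, measured 27.4, 19.2, 36.2 and 30.4 CPM against 4.31, 2.27, 4.75 and 2.32 and was the highest of the list (log2 3.04, SE 0.287, adjusted p = 2.86e-07); it had come down from 59.5 ± 5.61 CPM. Ptges, a prostaglandin E synthase, crossed. It measured 70.5, 95.2, 61 and 56.3 CPM in tPVAT cKO, 34.9, 39.6, 36 and 39.7 in aPVAT control and 14.6 ± 2.04 in tPVAT control, so the knockout libraries lay above both controls (log2 0.91, SE 0.159, adjusted p = 0.000141 against aPVAT control; 0.25 and 0.21 with library totals).

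Of 42 matrix genes, 23 were lower than in aPVAT control (30.2% of all genes were) and 5 higher (28.5% of all genes), with a median of -0.39 (-0.47 between the controls), and 3 parted tPVAT cKO from tPVAT control at the threshold. Dcn, the collagen-binding proteoglycan decorin, averaged 526 ± 60.5 against 1133 ± 66 CPM (log2 -1.11, adjusted p = 2.14e-07) and 501 ± 39.1 in tPVAT control. Qsox1, a secreted enzyme that forms disulfide bonds, crossed: it measured 78.5, 76.9, 71.6 and 74.4 CPM in tPVAT cKO, 62, 50.3, 52.4 and 54 in aPVAT control and 32.8, 36.4, 34.5 and 31.4 in tPVAT control. The 3 groups did not overlap (log2 0.46, SE 0.0773, adjusted p = 9.81e-05 against aPVAT control). That difference is -0.21 with library totals, so its place above abdominal fat depends on the scaling.

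Agt moved farthest of the named genes that reached the abdominal level. It encodes angiotensinogen, the precursor of the vasoconstrictor angiotensin, and lies on chromosome 8 (124556534 to 124569706, minus strand). It measured 56.8, 74.5, 53.2 and 45.9 CPM in tPVAT cKO, 55.1, 44.9, 38.9 and 56.5 in aPVAT control and 1.35, 1.63, 0.873 and 1.4 in tPVAT control. The knockout and abdominal libraries overlapped and the control thoracic ones were near 1 CPM. Against tPVAT control Agt rose 43.5-fold (log2 5.44, adjusted p = 7.99e-11), and against aPVAT control the difference was 0.24 (SE 0.149, 95% interval -0.08 to 0.55, adjusted p = 0.183). With library totals it is -0.42 (adjusted p = 0.0334), so the abdominal level is met under TMM and not under library totals. The 250 bases before its start in RefSeq (GRCm38.p6, chr8:124569707-124569956, minus strand) are shown because Agt had the largest control depot difference of those genes; capitals mark TATAAA, searched on both strands and found in 12.4% of 32851 such windows, here with its first base 30 bases before the start.
Agt: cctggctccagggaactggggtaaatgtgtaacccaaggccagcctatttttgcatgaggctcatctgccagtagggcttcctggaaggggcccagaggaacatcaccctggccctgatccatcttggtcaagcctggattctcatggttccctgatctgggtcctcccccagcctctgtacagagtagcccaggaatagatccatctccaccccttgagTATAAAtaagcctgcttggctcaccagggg

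Other genes that came up to the abdominal level were of several kinds. Slc25a10, the mitochondrial dicarboxylate carrier, measured 174, 167, 170 and 139 CPM in tPVAT cKO, 143, 151, 175 and 164 in aPVAT control and 43.3, 54.4, 46.2 and 47.7 in tPVAT control. The first 2 groups overlapped (log2 0.04, 95% interval -0.18 to 0.25, adjusted p = 0.773). Car5b, a mitochondrial carbonic anhydrase, averaged 277 ± 36.5, 271 ± 3.9 and 114 ± 5.63 CPM in the same order. Slc27a1, a fatty acid transport protein, averaged 403 ± 35.6, 469 ± 35.9 and 199 ± 23.3 (log2 -0.22, adjusted p = 0.0788), and Mfng, a glycosyltransferase that modifies Notch, 55.4 ± 4.14, 64.4 ± 11.4 and 16.8 ± 1.67 (log2 -0.22, adjusted p = 0.134). Without aPVAT control 2 the Mfng difference passes the test (-0.29, adjusted p = 0.0491), as the Slc27a1 difference does when only the 8 libraries are fitted (-0.22, adjusted p = 0.049). Pllp, a proteolipid of membranes, averaged 5.82 ± 0.821, 5.8 ± 0.674 and 1.88 ± 0.395. With library totals Slc25a10, Car5b and Pllp are lower than in aPVAT control, by -0.63, -0.63 and -0.67.

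Genes that came down to the abdominal level included Gldn, an extracellular protein known from nodes of Ranvier. It measured 2.04, 2.25, 2.03 and 2.4 CPM in tPVAT cKO, 2.92, 2.48, 2.1 and 1.59 in aPVAT control and 21.1, 10.1, 12.4 and 14.4 in tPVAT control. The knockout libraries fell inside the abdominal range and the control thoracic libraries were all several-fold higher (log2 -0.06, 95% interval -0.51 to 0.39, adjusted p = 0.824 against aPVAT control). Hsd11b1, which regenerates active glucocorticoid, measured 31.7, 33.4, 37 and 33.1 CPM, 36.4, 29.9, 33.2 and 40, and 67.7 ± 4.42 in the same order (log2 -0.05, 95% interval -0.25 to 0.16). Tfr2, a transferrin receptor, averaged 3.3 ± 0.712, 3.54 ± 0.992 and 7.92 ± 0.189 CPM, and P2ry1, a receptor for ADP, 3.92 ± 0.596, 4.57 ± 0.27 and 8.95 ± 1.68. Gldn, Hsd11b1 and P2ry1 overlap annotated genes on the opposite strand.

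The creatine transporter Slc6a8 also came down to the abdominal level (19.7 ± 0.676, 19.9 ± 3.09 and 28.1 ± 1.13 CPM). It was the 1 member to do so of 14 creatine and calcium cycling genes. Of these, 7 were higher in tPVAT cKO than in aPVAT control (28.5% of all genes were) and 6 lower (30.2%). Alpl, the alkaline phosphatase, went the other way, to 43.6 ± 1.62 CPM from 26.6 ± 1.51 in tPVAT control, with 8.1 ± 0.318 in aPVAT control (log2 2.43, SE 0.0639, adjusted p = 1.95e-12).

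**Figure D4:**
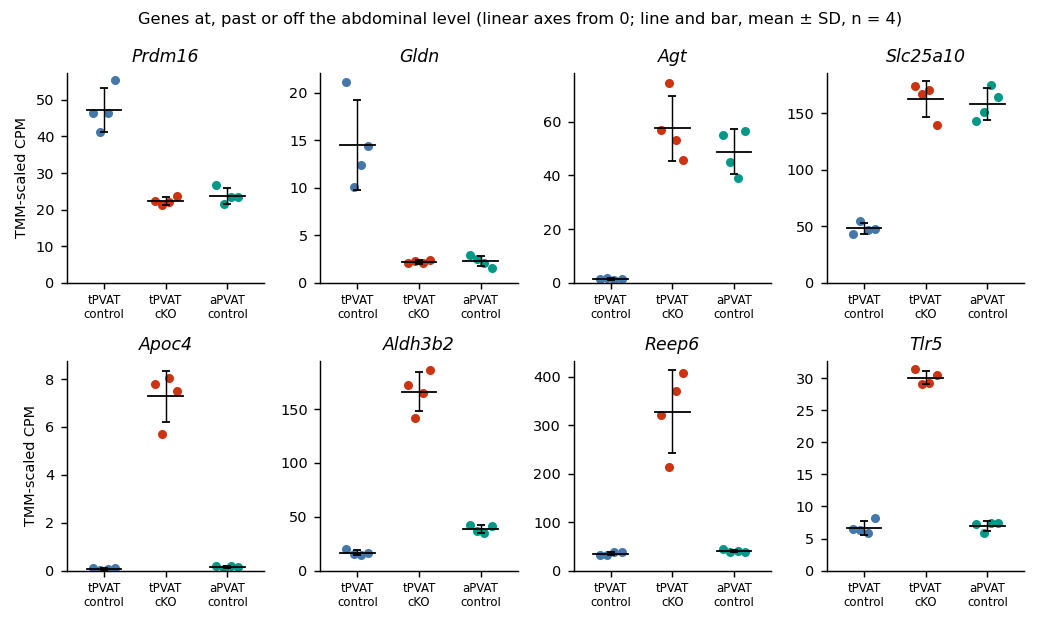
TMM-scaled CPM of 8 genes in each library, on linear axes from 0, with the mean and SD (n = 4). Prdm16, Gldn, Agt and Slc25a10 overlap abdominal control fat in the knockout under TMM scaling, Apoc4 and Aldh3b2 lie above it after starting below it, and Reep6 and Tlr5 leave a level that both control groups share.

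The genes that went past the abdominal level were led by a pair of neighbouring apolipoproteins on chromosome 7. Apoc4 (19678083 to 19681479, minus strand) measured 7.81, 5.72, 8.06 and 7.5 CPM in tPVAT cKO, 0.172, 0.0761, 0.174 and 0.147 in aPVAT control and 0.0989, 0.0375, 0.0459 and 0.0917 in tPVAT control. It was near 0 in both control groups, where 46 raw counts over 4 abdominal libraries carry its level, and at several CPM in every knockout library (log2 5.63, SE 0.22, adjusted p = 9.03e-11 against aPVAT control). Apoc2 (19671579 to 19677941, minus strand), which activates lipoprotein lipase and starts just downstream of Apoc4, measured 6.02, 5.29, 6.74 and 6.16 CPM, 1.02, 0.853, 0.986 and 1.01, and 0.316 ± 0.0972 in the same order (log2 2.64, SE 0.147, adjusted p = 1.35e-09). Transcripts that run from one gene into the next would be counted in both; whether there are any was not tested. The 250 bases before Apoc4 (RefSeq, GRCm38.p6, chr7:19681461-19681710, minus strand) are shown as the upstream edge of the pair, and TATAAA was not found in them on either strand.
Apoc4: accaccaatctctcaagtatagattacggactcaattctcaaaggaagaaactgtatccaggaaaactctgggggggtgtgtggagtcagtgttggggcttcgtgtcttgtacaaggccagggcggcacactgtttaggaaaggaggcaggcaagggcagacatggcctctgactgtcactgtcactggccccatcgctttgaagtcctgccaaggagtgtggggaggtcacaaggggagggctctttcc

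Another neighbouring pair behaved alike. Aldh3b2 and Aldh3b3, lipid aldehyde dehydrogenases next to each other on chromosome 19, are near copies, so reads may be split between them. Aldh3b2 measured 172, 142, 165 and 186 CPM in tPVAT cKO, 41.9, 36.5, 35 and 41 in aPVAT control and 19.6, 15.5, 14.6 and 16.4 in tPVAT control (log2 2.11, SE 0.11, adjusted p = 8.52e-10 against aPVAT control). The 3 groups did not overlap. Aldh3b3 averaged 6.71 ± 0.395, 1.9 ± 0.232 and 0.916 ± 0.107 CPM in the same order (log2 1.82, SE 0.121). Prlr, the prolactin receptor, measured 18.6, 19.3, 19.3 and 19 CPM against 4.82, 13.7, 7.13 and 9.09 (log2 1.14, SE 0.234, adjusted p = 0.000619; 0.46 and 0.0914 with library totals), and Grb7, an adaptor of receptor tyrosine kinases, averaged 4.45 ± 0.546 against 1.96 ± 0.518 (log2 1.19, SE 0.166, adjusted p = 1.77e-05).

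Among the genes that set the knockout apart from both control groups, Reep6 had the largest difference of the named genes. It encodes a protein that shapes the endoplasmic reticulum and measured 321, 213, 371 and 409 CPM in tPVAT cKO, 44.1, 38.2, 39.8 and 38.5 in aPVAT control and 32, 31.7, 38 and 39.1 in tPVAT control. The control groups overlapped and every knockout library was several-fold above them (log2 3.03, SE 0.162, adjusted p = 9.86e-10 against aPVAT control; control depots, adjusted p = 0.303). Tlr5, the flagellin receptor, measured 31.4, 29.2, 29.3 and 30.6 CPM against 7.3, 5.86, 7.38 and 7.38 (log2 2.11, SE 0.106, adjusted p = 6.15e-10), and Rassf3, a Ras association domain protein, 195, 201, 209 and 175 against 58.9, 60.5, 44 and 52 (log2 1.85, SE 0.108, adjusted p = 1.93e-09). Tgm3, a transglutaminase, was spread in the knockout, at 22.1, 10.5, 10.5 and 15.9 CPM against 3.94 ± 0.693 (log2 1.90, adjusted p = 1.41e-06).

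Lower than in both control groups were Osbp2, a sterol-binding protein (1.8 ± 0.499 against 6.07 ± 0.788 CPM in aPVAT control, log2 -1.76), and Cntfr, the receptor of ciliary neurotrophic factor. Cntfr measured 7.45, 6.61, 7.8 and 8.82 CPM in tPVAT cKO, 21.3, 15.7, 20.6 and 16 in aPVAT control and 15.3, 22.7, 19.2 and 17.2 in tPVAT control (log2 -1.26, SE 0.137, adjusted p = 1.25e-06). The knockout libraries lay below all 8 control libraries, which overlapped. Il18bp, which binds interleukin 18, and Slc2a12, a glucose transporter, were lower by smaller steps (log2 -0.93 and -0.85).

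Myoglobin had the widest difference of the named genes that were not at 0 in abdominal fat. Mb, myoglobin, the oxygen store of muscle, measured 292, 154, 434 and 322 CPM in tPVAT cKO, 0.283, 0.335, 0.279 and 0.245 in aPVAT control and 29.8, 28.5, 39.3 and 37.3 in tPVAT control. It was near 0 in abdominal fat, present in control thoracic fat and 8.91-fold above the latter in the knockout (log2 3.16, adjusted p = 4.81e-07); the difference from aPVAT control was 10.04 (SE 0.364, adjusted p = 5.70e-11). The abdominal level rests on 89 raw counts, and Mb overlaps Apol6 on the opposite strand. Esrrb, a nuclear receptor of the oestrogen-related family, did likewise, with 6.81, 8.03, 9.79 and 11 CPM, 0.332, 0.0609, 0.0928 and 0.184, and 1.16 ± 0.34 in the same order (log2 2.93 against tPVAT control, adjusted p = 6.14e-06).

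Heart muscle markers did not rise with Mb. Of 11 tested, 10 were higher in tPVAT cKO than in aPVAT control, with a median of 3.88 (4.35 between the controls), but 5 had fallen from tPVAT control. Myh6, the atrial myosin heavy chain, measured 37.2, 27.9, 88.4 and 74.5 CPM in tPVAT cKO, 0.209, 0.228, 0.162 and 0.184 in aPVAT control and 84.4, 91.7, 121 and 93.3 in tPVAT control (log2 8.18 against aPVAT control). The summed level of the list ran from 95.7 to 245 CPM in tPVAT cKO, 23.5 to 28.2 in aPVAT control and 247 to 330 in tPVAT control. Actn2, a sarcomere cross-linker, averaged 5.26 ± 1.79, 0.109 ± 0.0509 and 9.64 ± 1.53 CPM, and Myl7, the atrial light chain, 9.61 ± 4.08, 0.202 ± 0.145 and 17 ± 2.83. Cox6a2, an oxidase subunit of muscle and brown fat, averaged 4.11 ± 1.33, 0.071 ± 0.0455 and 6.55 ± 1.53. The creatine kinase Ckmt2 had 0 counts in all 4 abdominal libraries and 3.13 ± 1.46 CPM in tPVAT cKO, at least 328-fold higher against a floor of 3 counts over the group. Of 11 skeletal muscle markers, 7 were higher (28.5% of all genes were) and 1 lower (30.2%) than in aPVAT control. Their median was 1.96, and their summed levels overlapped, at 7.42 to 24.4 CPM against 5.59 to 9.77. Only 4 were higher when the 8 libraries alone were fitted or with limma-voom, and 5 without aPVAT control 1, 2, 3 or 4 or without tPVAT cKO 1, 2 or 4. The part of muscle tissue in the thoracic samples in these differences was not tested.

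**Figure D5:**
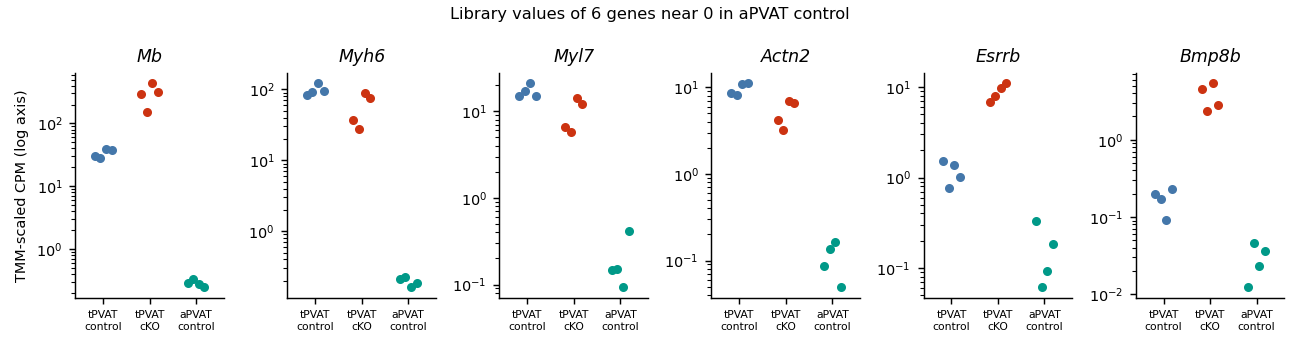
Library values of 6 genes on log axes of TMM-scaled CPM. Mb, Esrrb and Bmp8b are highest in the 4 tPVAT cKO libraries, whereas Myh6, Myl7 and Actn2 are not, and all 6 are lowest in the 4 aPVAT control libraries.

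Most marker lists of vessel, immune, stromal and nerve cells were lower in tPVAT cKO than in abdominal control fat, where 30.2% of all genes were lower. Of 16 endothelial markers, 14 were lower, with a median of -0.48 (summed level 1505 to 1555 CPM against 2288 to 2777). Pecam1, an endothelial adhesion molecule, measured 237, 258, 243 and 243 CPM against 564, 414, 414 and 430 (log2 -0.89, adjusted p = 2.04e-06), and Vwf, von Willebrand factor, averaged 166 ± 20.3 against 525 ± 74.8 (log2 -1.66, adjusted p = 4.48e-09). Macrophage markers were lower in 14 of 15 (summed 465 to 594 against 895 to 1239 CPM), lymphocyte markers in 12 of 16 (66.6 to 143 against 152 to 302), fibroblast and progenitor markers in 10 of 13 (1037 to 1336 against 2055 to 2321) and sympathetic neuron markers in 14 of 17 (453 to 889 against 897 to 1392), and the other members of each did not pass the test. Between the control depots 14, 14, 10 and 17 members of these lists were lower, in the same order, and 1 fibroblast marker was higher. Only 1 member, a fibroblast marker that fell, parted tPVAT cKO from tPVAT control. Of the endothelial markers, 11 were lower and 2 higher between the control depots, and 4 fell from tPVAT control. Schwann cell markers were lower than in aPVAT control in 11 of 12, with S100b, which brown adipocytes also express, the 1 higher. Smooth muscle and pericyte markers were lower in 4 of 14, near the 30.2% among all genes, with summed levels of 2648 to 2841 and 2598 to 3934 CPM that overlapped; between the control depots 5 were higher and 1 lower. Mesothelial markers were higher in 3 of 8 (37.5%, against 28.5% of all genes, median 0.80). Thymocyte markers were higher in 3 and lower in 3 of 8 (75% called in either direction, against 58.8% of all genes).

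Interferon response genes, which report antiviral signalling in many cell types, were lower in 19 of 20, with a median of -1.14 (-0.94 between the controls). Isg15, a ubiquitin-like effector, measured 2.54, 2.35, 2.37 and 2.53 CPM against 11, 9.06, 7.39 and 5.28 (log2 -1.74, SE 0.215, adjusted p = 5.14e-06), and 3.35 ± 0.835 in tPVAT control. Red blood cell genes were higher in 6 of 6, with summed levels of 419 to 970 CPM against 277 to 483 that overlapped. How far the makeup of cells moves with the other gene groups was not tested.

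Among 23 genes tested of Prdm16 and its partners, 10 were higher than in aPVAT control and 5 lower, with a median of 0.14 that turns to -0.53 with library totals. The share called in either direction, 65.2%, was near the 58.8% among all genes. Cebpb, the C/EBP factor that binds PRDM16, averaged 153 against 44.8 CPM (log2 1.77, SE 0.139, adjusted p = 3.89e-08), and Esrrg, an oestrogen-related receptor, 23.1 against 3.64 (log2 2.66, adjusted p = 1.54e-09). Ehmt2, a histone methyltransferase found in PRDM16 complexes, was lower (63.4 against 83.4 CPM, log2 -0.40, adjusted p = 0.000206). Of the list, 3 genes fell from tPVAT control: Prdm16 itself, Ppara, a fatty acid sensing receptor (76 against 101 CPM, 22 in aPVAT control), and Ppargc1b, a coactivator of the PGC1 family (31.6 against 51.8 CPM, 9.93 in aPVAT control). Prdm16 reached the abdominal level while Ppara and Ppargc1b stayed above it by 1.79 and 1.67.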

How the data were processed

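The deposited data are raw read counts for 43352 Ensembl genes in 15 libraries, as whole numbers without normalization by the authors. Per the labels' protocols these came from stranded mRNA libraries. Per the submitters' processing notes the build was mm10, and Salmon, Subread and DESeq2 1.42.1 are named without a role; the sources used here give no annotation, strand setting or counter. Gene names and positions are from GENCODE M21 (97.96% of identifiers matched).

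Differences were computed with edgeR 4.0.16 (quasi-likelihood, R 4.3.3) on all 15 libraries with 1 mean per group, a minimum count of 10, TMM and Benjamini-Hochberg adjustment over 19645 genes, which hold 99.98% of counts. SE is the size of the log2 difference over the square root of F. On simulated counts of 19267 genes for tPVAT cKO against aPVAT control, 93% of changes of 1 on the log2 scale and 99% of changes of 2 were called. The changes were put in 100 genes of each size, none with low counts, and all other genes were equal between groups. Low counts and a wide shift of composition were thus not covered. limma 3.58.1 (voom) and DESeq2 1.42.0 served as alternatives. The main fit pairs no libraries: tPVAT cKO and aPVAT control differ in genotype. Whether same-numbered control samples of both depots share a mouse is not stated in the labels. Library aPVAT cKO 2 was not analysed here.

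Lists and the rule for named genes were chosen with earlier results of these data known. The rule takes a panel of 13 genes, the genes with the largest differences in each class (up to 10 or 6), up to 4 members with the smallest p per list, and every gene of a count of 5 or fewer. No p is adjusted over a list, and lists are described by counts and medians. A result that the rule names is not reported here.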

Additional observations from a re-analysis of the deposited data

Results flagged for a closer look

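With 4 libraries in a group, a library was singled out when its gap to the nearest other, over the group's range, exceeded Dixon's 95% critical value, and chance flags about 1 in 20 groups. Of 297 groups of values checked for the genes and shares named above, 16 (5.39%) were flagged.

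In tPVAT cKO, library 2 was the one apart for Cycs (282 CPM, low), Fabp4 (8440 CPM, low), Hoxa10 (0.651 CPM, high) and Il18bp (3.94 CPM, high), and library 1 for Scd1 (65738 CPM, high). In aPVAT control, library 1 was high for Elovl3 (13.4 CPM) and Pecam1 (564 CPM) and library 3 for Ppara (28.7 CPM), while library 2 was low for Atp5g3 (172 CPM) and Tlr5 (5.86 CPM) and library 4 for Aldh3b3 (1.56 CPM). Ribosomal and other structural RNA took 0.929% of counts in aPVAT control 2, high against 0.112% to 0.169% in the other 3 abdominal control libraries. In tPVAT control, Hoxc10 was high in library 1 (0.495 CPM), Il18bp high in library 2 (6.84 CPM), Fabp4 low in library 2 (6491 CPM) and Aldh3b3 low in library 3 (0.758 CPM).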

How the results depend on the processing

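Scaling was the choice that moved most. With library totals in place of TMM, 1457 genes were higher and 13649 lower, 14084 control depot differences remained, 244 genes parted the knockout from both controls (21 shared with the 485), and 102 were crossed (22 shared with the 96); the cause was not tested. Under library totals the differences of named genes reversed for Adrb3 (-0.50), Agt (-0.42), Atp5g2 (-0.52), Atp5g3 (-0.60), Car5b (-0.63), Cox7a2l (-0.54), Dgat2 (-0.22), Ebf2 (-0.24), Fabp4 (-0.14), Hoxc8 (-0.10), Pllp (-0.67), Qsox1 (-0.21), Slc25a1 (-0.06) and Slc25a10 (-0.63), while Prdm16 was lower than in aPVAT control (-0.76, adjusted p = 1.39e-06). TMM without mitochondrial genome genes gave 5788 higher and 5757 lower.

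limma-voom with weights per library counted 602 genes that reached the abdominal level (342 shared with the 394) and 895 that parted the knockout from both controls. A margin of 1.2-fold in place of 1.5-fold left 175 that reached it, and asking for a 2-fold difference left 1613 higher and 1580 lower. Leaving out each library in turn gave 5163 to 5647 higher, 5434 to 5949 lower, 8431 to 9336 remaining, 291 to 525 that reached, 69 to 90 crossed and 332 to 739 that parted the knockout from both controls, the last without aPVAT control 1. The mitochondrial share then differed by 15 to 16.7 points (exact permutation p = 0.0571, the smallest that 3 against 4 allows).

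Same-numbered libraries of tPVAT cKO and aPVAT control did not deviate together (r of -0.0177, 0.0281, -0.101 and -0.111). The same held for tPVAT control and aPVAT control (r of 0.0325, 0.00273, 0.0482 and 0.00578). Such correlations cannot show whether samples share a mouse or a batch. A fit with the replicate block gave 5584 higher, 5862 lower, 9086 remaining, 391 that reached, 97 crossed and 470 that parted the knockout from both controls.

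Genes near 0 in a group limit what depth can show: the ratios of Mb, Myh6, Apoc4, Bmp8b and Ckmt2 to abdominal fat rest on few counts there.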
